A study of Mus musculus with 2 samples.

Results

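Ctsk, Dcstamp, Ocstamp, Acp5, Atp6v0d2, Tnfrsf11a, Nfatc1 and Mitf are genes best known from osteoclasts and from the fusion of macrophages into multinucleated cells. They were looked up by symbol in a single-cell transcript table of mouse fat, and 8 of 8 were found among its 30084 genes. The cells were the stromal vascular fraction, the part of digested fat that holds all cells except adipocytes, of epididymal fat. They came from male mice of C57BL/6J background that were Mincle-deficient or wild-type, and all were on high-fat feeding that lasted 15 weeks. Mincle is a receptor of macrophages for glycolipids. The suspensions were marked with hashtag antibodies and pooled, and 20000 cells were loaded on a BD Rhapsody system for whole-transcriptome amplification by TAS-Seq. The pool gave 1 transcript library that holds both genotypes. The labels pair no hashtag with a genotype and do not say how many mice stand behind a hashtag, so Mincle-deficient and wild-type cells cannot be told apart and the genotypes were not compared. Values are given for the pool and for each of the 4 hashtags, A0309, A0310, A0311 and A0312, which show a spread but are not replicates of a group. The 8 genes were chosen by their levels in the classes and macrophage states of these same cells, so their levels are descriptions and no test was run on them.

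Osteoclasts are multinucleated cells of the monocyte and macrophage lineage that dissolve bone. Their formation is driven by RANKL, the product of Tnfsf11, through its receptor RANK, the product of Tnfrsf11a, and by the growth factor CSF1. RANK signalling switches on the transcription factor NFATc1, which acts with MITF, PU.1 and AP-1 on the genes of bone resorption. Ctsk encodes cathepsin K, a protease that cuts collagen, and Acp5 encodes tartrate-resistant acid phosphatase, the classic stain for osteoclasts. Atp6v0d2 encodes a V0 subunit of the proton pump V-ATPase that also takes part in cell fusion. Dcstamp and Ocstamp encode membrane proteins that are needed for precursor cells to fuse. In obese fat, macrophages load lipid, gather around dying adipocytes and can form multinucleated giant cells. Cathepsin K is also made by fibroblasts, and NFATc1 is used by T cells and by lymphatic endothelium.

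The 15741 cells of the table held 651658017 counts, and a cell held 6596 to 473807, with 34182 as the median. Of the 15374 cells that the authors gave a single hashtag, 15192 passed the filters. Clusters made without the 8 genes gave 8030 macrophage-like cells with a median of 41349 counts and 3517 fibroblast-like cells with a median of 35511. They also gave 1065 endothelial-like, 406 T cell-like, 404 mural-like, 192 monocyte-like and 179 dendritic cell-like cells. The macrophage-like cells fell into 13 sub-clusters, of which sub-cluster 7 was lipid-associated-like, with 634 cells, and sub-cluster 10 was resident-like, with 192 cells. Lipid-associated macrophages are the lipid-laden macrophages of obese fat, and resident macrophages carry Lyve1 and Cd209f here. Levels are CPM, the counts of a gene summed over the cells of a class and scaled to a common total. They are not corrected for gene length, so they are compared within a gene and not between genes.

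Of the genes that define a mature osteoclast, Oscar had 27 counts in the 8030 macrophage-like cells and 0 counts in lipid-associated-like and in resident-like cells. Mmp9 stood at 1.76 CPM in macrophage-like cells, with a count in 1.48% of them, and Car2 at 3.74 CPM, with a count in 3.77%. Both were at their macrophage peak in sub-cluster 4, at 8.10 CPM for Mmp9 and 17.1 CPM for Car2. Itgb3, at 1.30 CPM, and Src, at 3.07 CPM, were also low in macrophage-like cells. The other genes of the resorption and sealing zone list were above these, with Tcirg1, a V-ATPase subunit, at 349 CPM, Snx10 at 141 CPM, Clcn7, a chloride transporter, at 87.4 CPM, Itgav at 79.3 CPM, Ostm1 at 54.3 CPM, Plekhm1 at 43.4 CPM and Mmp14 at 12.04 CPM. No cells were called osteoclasts here, and osteoclast-like refers to the 8 genes. For Ctsk and Atp6v0d2 the deposited table holds no value below 7 and 6 in any cell, so their low counts had been replaced by 0 in the deposited table. Their shares of cells with a count are minimum shares for that reason.

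Lipid-associated-like macrophages had more Ctsk, Dcstamp, Acp5 and Atp6v0d2 than resident-like macrophages in the pool and in each hashtag. By the rule of size, a log2 ratio of CPM plus 1 of at least 1 in the pool and in every hashtag, 4 of the 8 genes were higher and 0 were lower. Over all genes the rule called 1.46% higher and 2.79% lower, and among genes at 5 CPM or more it called 3.07% higher and 6.45% lower. The median log2 ratio was 1.40 over the 8 genes and -0.23 over all genes at 5 CPM or more. The median depth was 73449.5 counts in lipid-associated-like cells and 21405 in resident-like cells. With cells thinned to 20000 counts each and low counts of Ctsk and Atp6v0d2 set to 0 again, the log2 ratio was 5.46 for Ctsk, 3.25 for Dcstamp, 3.85 for Acp5 and 2.64 for Atp6v0d2, and all 4 were still called. Only cells with that many counts could be used, so 589 lipid-associated-like and 101 of 192 resident-like cells were left. Set against all other macrophages, Ctsk and Acp5 were higher in lipid-associated-like cells and the other members were not called, so 2 of 8 were higher where the rule called 0.192% of all genes higher and 1.58% lower, or 0.522 and 3.91% of genes at 5 CPM or more. The resident-like cells are the low end of the range for these genes, and the comparison with them depends on which cluster carries that name. At a Leiden resolution of 2.0 another cluster, led by Vsig4 and Postn, was resident-like, and against it the log2 ratio was -0.15 for Atp6v0d2 and 2.15, no longer called, for Ctsk.

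**Figure D1:**
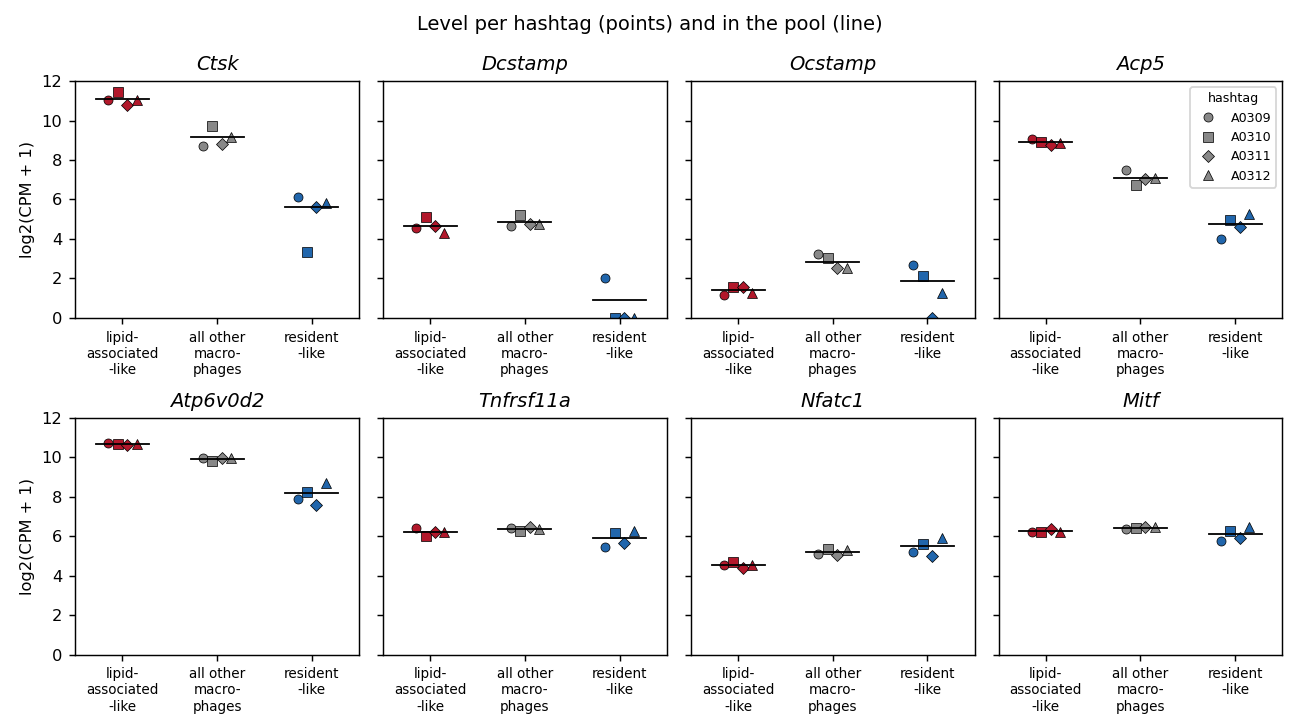
Level of each gene as log2(CPM + 1) in lipid-associated-like macrophages, in all other macrophages (which include the resident-like ones) and in resident-like macrophages. Points are hashtags and the line is the pool. For Ctsk, Acp5, Atp6v0d2 and Dcstamp the lipid-associated-like points lie above every resident-like point, and for Tnfrsf11a and Mitf their range overlaps that of either other group.

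The receptor of the pathway, Tnfrsf11a, lies on chromosome 1 at 105780718 to 105847981 on the plus strand (GRCm38, GENCODE vM21). Its level varied least over the macrophage sub-clusters among the 8 genes, from 54.6 CPM in the mitosis-like sub-cluster 1 to 105 CPM in the DNA synthesis-like sub-cluster 9, a 1.93-fold range. Lipid-associated-like cells had 84.7, 64.2, 72.5 and 73.8 CPM in hashtags A0309 to A0312, against 42.7, 71.0, 49.5 and 74.95 CPM in resident-like cells. The 2 states overlapped, with a log2 ratio of 0.30 in the pool. Macrophage-like cells had 80.7 CPM and fibroblast-like cells 4.04 CPM, a log2 ratio of 4.02 with a range of 3.97 to 4.14 over hashtags. Monocyte-like cells had 70.4 CPM, with 50.6, 38.0, 128 and 57.9 CPM in hashtags A0309 to A0312. The log2 ratio of macrophage-like over monocyte-like cells was 0.20, with a range of -0.58 to 0.96 over hashtags. An unnamed cluster of 608 cells led by Cd209a had 68.7 CPM. Cells with a Tnfrsf11a count, after thinning to 10000 counts, made up 43.0% of macrophage-like and 3.23% of fibroblast-like cells.

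The ligand side was in other cells. Tnfsf11 (RANKL) had 224 counts in 57 of 406 T cell-like cells, or 34.1 CPM. In macrophage-like cells it had 11 counts in 10 of 8030 cells, and in fibroblast-like cells 46 counts in 15 of 3517 cells. Tnfrsf11b, which encodes the decoy receptor osteoprotegerin that binds RANKL, stood at 43.8 CPM in fibroblast-like cells and at 330 CPM in the 17 mesothelial-like cells, against 0.287 CPM in macrophage-like cells. Csf1 stood at 408 CPM in fibroblast-like cells and at 6.504 CPM in macrophage-like cells. So macrophage-like and monocyte-like cells carried the receptor transcript, T cell-like cells the ligand and fibroblast-like cells the decoy and Csf1.

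Nfatc1, the main transcription factor of osteoclast formation, did not follow the resorption genes over the macrophage sub-clusters. It lies on chromosome 18 at 80606205 to 80713071 on the minus strand and overlaps an antisense gene, AC123818.1, whose reads may not have been told apart. Lipid-associated-like cells had 22.1, 24.8, 19.8 and 22.3 CPM in hashtags A0309 to A0312, against 35.7, 47.0, 30.8 and 59.1 CPM in resident-like cells. The 2 states did not overlap, and the log2 ratio of -0.95 in the pool missed the rule of size. The 22.2 CPM of lipid-associated-like cells was the lowest of the 13 macrophage sub-clusters, next to 22.6 CPM in sub-cluster 4. The highest was 61.0 CPM in sub-cluster 2, an MHC class II high-like sub-cluster led by Il1b and Adgre4, followed by 46.6 CPM in sub-cluster 8 and 43.7 CPM in the resident-like cells. Across the 13 sub-clusters the Pearson correlation of log2(CPM + 1) of Nfatc1 was -0.68 with Ctsk, -0.68 with Acp5, -0.68 with Atp6v0d2 and -0.76 with Dcstamp. These correlations are descriptions over sub-clusters of 1 library.

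Mitf, a factor that binds E-box motifs and drives melanocyte, mast cell and osteoclast genes, lies on chromosome 6 at 97807052 to 98021349 on the plus strand. Its Pearson correlation over the 13 macrophage sub-clusters was 0.25 with Ctsk, 0.24 with Acp5, 0.52 with Atp6v0d2 and 0.16 with Dcstamp. Lipid-associated-like cells had 74.1, 74.2, 81.8 and 74.1 CPM, against 53.6, 74.5, 58.8 and 87.9 CPM in resident-like cells. The states overlapped, with a log2 ratio of 0.14. Its range over sub-clusters was 2.33-fold, with the highest level of 118 CPM in sub-cluster 6, which is MHC class II high-like and led by Smpd3, then 106 CPM in sub-cluster 3 and 104 CPM in sub-cluster 12. The lowest levels, 50.4 and 56.6 CPM, were in the mitosis-like sub-clusters 1 and 0. None of the other MiT factors, Tfe3, Tfeb and Tfec, was called between lipid-associated-like and resident-like cells, and neither was any of 7 calcineurin and NFAT genes.

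The resorption genes Ctsk, Acp5 and Atp6v0d2 peaked together in lipid-associated-like macrophages. Ctsk stood at 2074, 2738, 1741 and 2114 CPM in lipid-associated-like cells of hashtags A0309 to A0312, against 69.2, 9.17, 47.6 and 54.8 CPM in resident-like cells. The lowest lipid-associated-like value was far above the highest resident-like one, and the pool gave 2141 CPM (95% exact Poisson interval 2129 to 2154) against 48.5 CPM (42.4 to 55.3), a log2 ratio of 5.44. Such intervals cover counting error only. Sub-clusters 12 and 5 followed with 978 and 893 CPM. The MHC class II high-like sub-clusters 6, 2 and 8 had 493, 191 and 176 CPM. In hashtag A0310 Ctsk was higher than in the other hashtags over all macrophage-like cells, at 1063 CPM against 623, 620 and 801 CPM in A0309, A0311 and A0312.

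Acp5 stood at 540, 476, 435 and 467 CPM in lipid-associated-like cells of hashtags A0309 to A0312, against 14.8, 29.8, 23.3 and 37.5 CPM in resident-like cells. The groups were far apart in every hashtag, with a log2 ratio of 4.11 in the pool. Next in order were 267 CPM in sub-cluster 11, led by F7 and Tenm4, 225 CPM in sub-cluster 4 and 201 CPM in sub-cluster 3. Here the order of hashtags was not that of Ctsk, since over all macrophage-like cells A0309 had the highest Acp5 level, 226 CPM, and A0310 the lowest, 149 CPM. Acp5 overlaps the gene 6530413G14Rik on the other strand.

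Atp6v0d2 stood at 1710, 1611, 1583 and 1654 CPM in lipid-associated-like cells of hashtags A0309 to A0312, against 236, 298, 190 and 413 CPM in resident-like cells. The log2 ratio was 2.49, and against all other macrophages it was 0.75, with 1636 against 970 CPM. Atp6v0d2 was thus broad, with a count in 81.0% of macrophage-like cells and 607 CPM or more in every macrophage sub-cluster other than the resident-like one, where it was 290 CPM. Sub-clusters 3 and 11, at 1409 and 1399 CPM, came next to the lipid-associated-like cells and did not differ from each other beyond their hashtags. Over the 13 sub-clusters the Pearson correlations of log2(CPM + 1) were 0.85 for Ctsk with Acp5, 0.86 for Ctsk with Atp6v0d2 and 0.88 for Acp5 with Atp6v0d2.

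**Figure D2:**
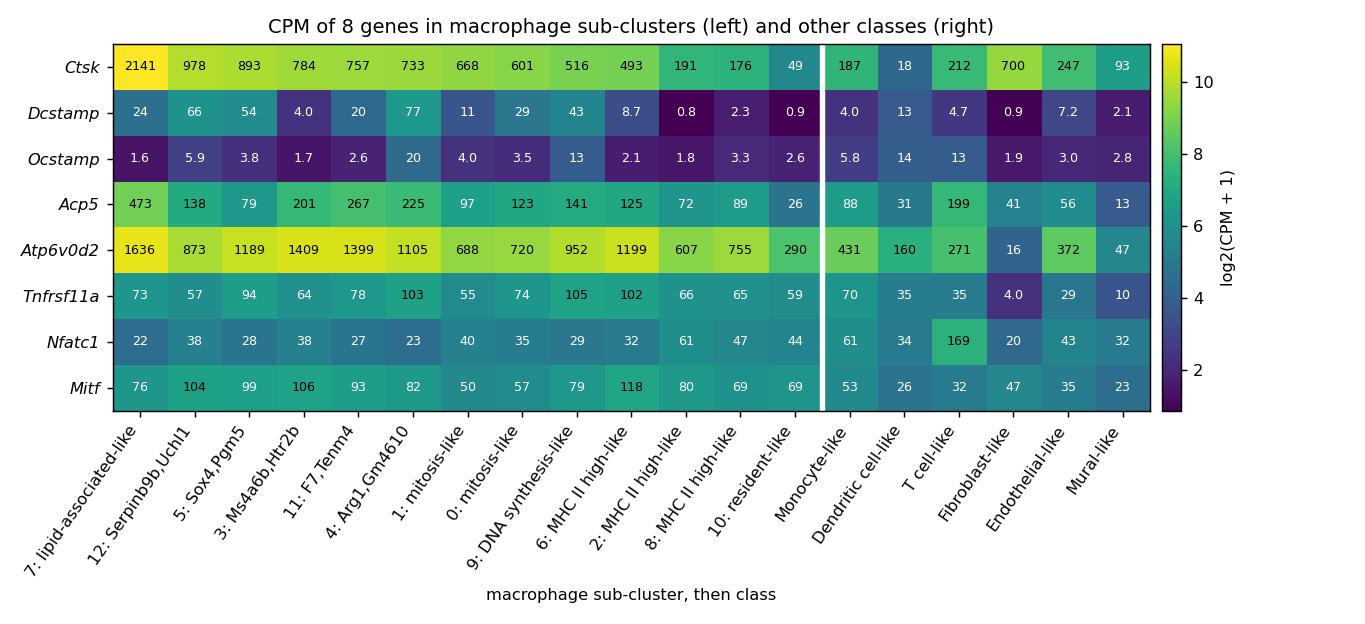
CPM of each gene (numbers; colour is log2(CPM + 1)) in the 13 macrophage sub-clusters, ordered by Ctsk, and in 6 other classes. Ctsk, Acp5 and Atp6v0d2 peak in the lipid-associated-like sub-cluster 7, Dcstamp and Ocstamp in sub-cluster 4, and Nfatc1 in T cell-like cells. Levels are compared along a row.

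The promoters of Ctsk and Acp5 are shown because these 2 genes moved together over the macrophage states and are textbook targets of MITF, PU.1 and NFATc1. RefSeq windows of GRCm38.p6, from 250 bases before to 50 bases after a start site, were at hand for 4 of the 8 genes. Acp5 had 3 such windows, for 3 start sites, and the one shown was chosen because it held an E-box. The other two held a single GGAAA each and none of the other motifs. Both strands were searched for CATGTG and CACGTG (E-boxes of MITF, with TCATGTG as the longer form), GGAAA (the NFAT core), GAGGAA (PU.1) and TGANTCA (AP-1), and matches are in capitals in sequences that read 5′ to 3′ on the gene's strand.
Ctsk, chr3:95498960-95499259, plus strand: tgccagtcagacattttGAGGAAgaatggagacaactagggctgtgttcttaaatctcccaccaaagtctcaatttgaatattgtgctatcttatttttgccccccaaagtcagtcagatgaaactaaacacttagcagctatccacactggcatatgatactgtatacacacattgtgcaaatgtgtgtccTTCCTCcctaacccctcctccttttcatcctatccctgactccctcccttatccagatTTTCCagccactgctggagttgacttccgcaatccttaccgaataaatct
Acp5, chr9:22130549-22130848, minus strand: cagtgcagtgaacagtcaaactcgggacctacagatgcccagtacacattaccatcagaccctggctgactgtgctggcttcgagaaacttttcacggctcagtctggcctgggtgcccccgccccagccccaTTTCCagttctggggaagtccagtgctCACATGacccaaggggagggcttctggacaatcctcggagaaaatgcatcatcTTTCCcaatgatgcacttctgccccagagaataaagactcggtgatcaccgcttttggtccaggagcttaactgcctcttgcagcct
The Acp5 window shown held CACATG followed by A, which is TCATGTG on the other strand, 90 bases before the start site, and GGAAA on the other strand at 117 and 37 bases before it. The Ctsk window held GAGGAA 233 bases before the start site and, on the other strand, 58 bases before it, with GGAAA on the other strand at the start site. These letters are common, since TCATGTG was in 3.77% of 32851 windows, CATGTG in 14.2%, GAGGAA in 28.3% and GGAAA in 61.3%. CACGTG, in 7.15% of windows, and TGANTCA, in 7.81%, were in neither of the windows shown. A match is a run of letters and not a measured site.

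The fusion genes Dcstamp and Ocstamp peaked in sub-cluster 4, which held 740 cells, was led by Arg1, Gm4610 and Ear2 and was not the lipid-associated-like sub-cluster here. That contrast depends on which clusters carry the name. With a stricter hashtag rule, with doublets kept and with a stricter cell filter, a cluster led by Arg1 or Gm4610 was itself among the lipid-associated-like ones. Against the other macrophages the Dcstamp log2 ratio was then 1.08, 1.54 and 1.33, against -0.22 here. Dcstamp stood there at 60.4, 97.6, 85.5 and 76.8 CPM in hashtags A0309 to A0312. It was also high in sub-cluster 12 at 65.9 CPM, of which 165 of 232 cells came from A0310, in sub-cluster 5 at 53.8 CPM and in the DNA synthesis-like sub-cluster 9 at 43.0 CPM. Lipid-associated-like cells held a middle level of 22.3, 33.5, 24.6 and 18.9 CPM. Resident-like cells had 3.11 CPM in A0309 and 0 counts in the other 3 hashtags, or 4 counts in all. The MHC class II high-like sub-clusters 6, 8 and 2 had 8.75, 2.33 and 0.832 CPM. Dcstamp therefore spanned the widest range of the 8 genes over macrophage sub-clusters, 92.9-fold, from sub-cluster 2 to sub-cluster 4.

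Ocstamp stood at 22.1, 16.6, 19.4 and 20.6 CPM in sub-cluster 4 and at 8.25, 33.5, 5.39 and 8.56 CPM in sub-cluster 9. The level in sub-cluster 9 rested on A0310, while sub-cluster 4 was alike in all 4 hashtags. In lipid-associated-like cells Ocstamp was at 1.63 CPM, next to 1.72 CPM in sub-cluster 3 the lowest level of the 13 sub-clusters, against 2.60 CPM in resident-like cells, where it had 12 counts. Against all other macrophages, at 6.04 CPM, the log2 ratio was -1.42 and reached 1 in size in every hashtag except A0311, where it was -0.93. Both ratios took the other sign where clusters led by Arg1 or Gm4610 were also named lipid-associated-like, and the ratio to resident-like cells was 0.12 without A0309. Under the stricter hashtag rule Ocstamp was called against resident-like cells, of which 85 were left, and 5 members were higher. The log2 ratios of Ocstamp were 1.53 against them and 0.99 against the other macrophages. With the stricter cell filter these were 1.60 and 0.57, and with doublets kept 0.82 and 0.74. Ocstamp counts lay in few cells, since the 81 macrophage-like cells with the most counts held 60.2% of them. The same number of top cells held 29.7% of Dcstamp, 19.9% of Ctsk, 17.3% of Acp5 and 7.04% of Atp6v0d2 counts.

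The cells with the most Ocstamp had, as a group, more Dcstamp than other macrophages. Of 8030 macrophage-like cells, 39 had 10 or more Ocstamp counts, and these were 12, 9, 6 and 12 cells in hashtags A0309 to A0312. They held 11 to 73 Ocstamp counts, and 19 of them were in sub-cluster 4 and 11 in sub-cluster 9. Of the 39 cells, 20 (51.3%) had 10 or more Dcstamp counts, against 355 (4.42%) of all macrophage-like cells. Dcstamp stood at 219 CPM in the 39 cells and at 25.9 CPM in the other macrophage-like cells. Ctsk, at 587 CPM in the 39 cells against 783 CPM in the others, was not higher there. Car2, the carbonic anhydrase that supplies protons for resorption, stood at 32.3 against 3.51 CPM. Irf8, which encodes a repressor of osteoclast genes, stood at 51.4 against 164 CPM. The threshold of 10 counts and the genes Car2 and Irf8 were chosen for this paragraph after their values were seen.

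The 39 cells were deeper than the rest, with a median of 75591 against 41202 counts, and the part of depth in their number was not tested. Higher Dcstamp and Car2 were also present within both sub-clusters that held most of these cells. In sub-cluster 4, Dcstamp was 201 CPM in the 19 cells against 72.9 CPM in the other 721 cells, and Car2 was 57.2 against 15.6 CPM. In sub-cluster 9, Dcstamp was 303.1 CPM in the 11 cells against 35.3 CPM in the other 537, and Car2 was 13.9 against 3.18 CPM. Irf8 was 69.0 against 96.7 CPM in sub-cluster 4 and 19.5 against 110 CPM in sub-cluster 9. Other osteoclast genes did not share this. In sub-cluster 4 Mmp9 had 0 counts in the 19 cells, where 3 counts would be 2.20 CPM, against 8.39 CPM in the others, and Nfatc1 was 11.7 against 23.0 CPM. In sub-cluster 9 Acp5 was 68.8 against 143 CPM, and Nfatc1 38.1 against 28.6 CPM. Ctsk was 721 against 734 CPM in sub-cluster 4 and 556 against 515 CPM in sub-cluster 9.

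Pairs of genes were counted per cell in 7721 macrophage-like cells thinned to 10000 counts. Dcstamp and Ocstamp showed the largest excess of the 28 pairs. Both were present in 58 cells, or 0.751% against 0.264% expected if the genes were independent, a ratio of 2.84 with a range of 2.27 to 3.74 over hashtags. Ocstamp had a count in 7.85% of cells with Dcstamp and in 2.22% of cells without it. With the expected number taken from the shares within each sub-cluster, the ratio was 1.97. Ctsk and Acp5 were together in 1449 cells, a ratio of 1.32 (1.30 to 1.37 over hashtags, 1.17 within sub-clusters), and Acp5 had a count in 56.6% of cells with Ctsk against 36.1% of cells without it. Ctsk and Dcstamp had a ratio of 1.37, which was 1.15 within sub-clusters. The lowest ratio was that of Dcstamp and Nfatc1, at 0.74 in the pool (0.48 to 0.99 over hashtags) and 0.86 within sub-clusters. Over all 28 pairs, 21 had a ratio above 1, but only 14 were above 1 under every alternative setting tried and 0 were below 1 under every one. Without thinning, the ratio of Dcstamp and Nfatc1 was 1.10, and under the other settings it was 0.48 to 0.86. Dcstamp with Ocstamp was 1.93 to 6.60 under the alternatives. Cells share 1 library, so these are descriptions.

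**Figure D3:**
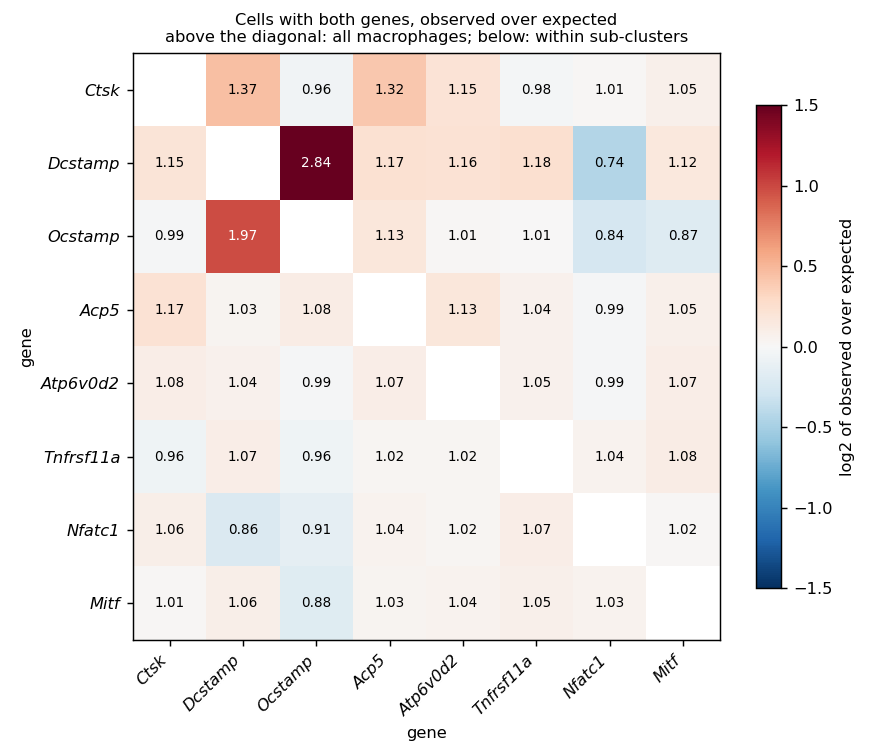
Observed over expected number of macrophage-like cells with a count of both genes (7721 cells thinned to 10000 counts); above the diagonal over all macrophages, below it expected from the shares within each sub-cluster. Dcstamp with Ocstamp is highest, at 2.84 and 1.97, and Dcstamp with Nfatc1 is lowest above the diagonal, at 0.74.

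Most macrophages held some of the 8 genes and few held nearly all. In the thinned cells a mean of 2.79 of the 8 genes had a count, and the mean was 3.73 in lipid-associated-like cells and 1.37 in resident-like cells. Sub-cluster 12 had 3.34, sub-cluster 3 had 3.22 and sub-cluster 4 had 3.20. No cell had all 8, and 164 cells (2.12%; 1.44 to 2.65% over hashtags) had 6 or more. Of those, 31 were lipid-associated-like, or 5.02% of these cells, and 30 were in sub-cluster 4, or 4.37%. Outside the macrophages, fibroblast-like cells had a mean of 1.52 genes and 0 of 3401 cells with 6 or more, T cell-like cells had a mean of 1.43 and monocyte-like cells 1.41. Endothelial-like cells had 4 of 804 cells with 6 or more, T cell-like cells 2 of 225 and monocyte-like cells 1 of 169. The endothelial-like class includes a cluster of 155 cells before thinning that carried macrophage markers. Adgre1, Cd68, C1qa, C1qb, Csf1r and Mrc1 stood there at 85.3 to 101% of their macrophage level. Ctsk and Atp6v0d2 add less to these numbers than their level would give, because of their low counts set to 0.

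**Figure D4:**
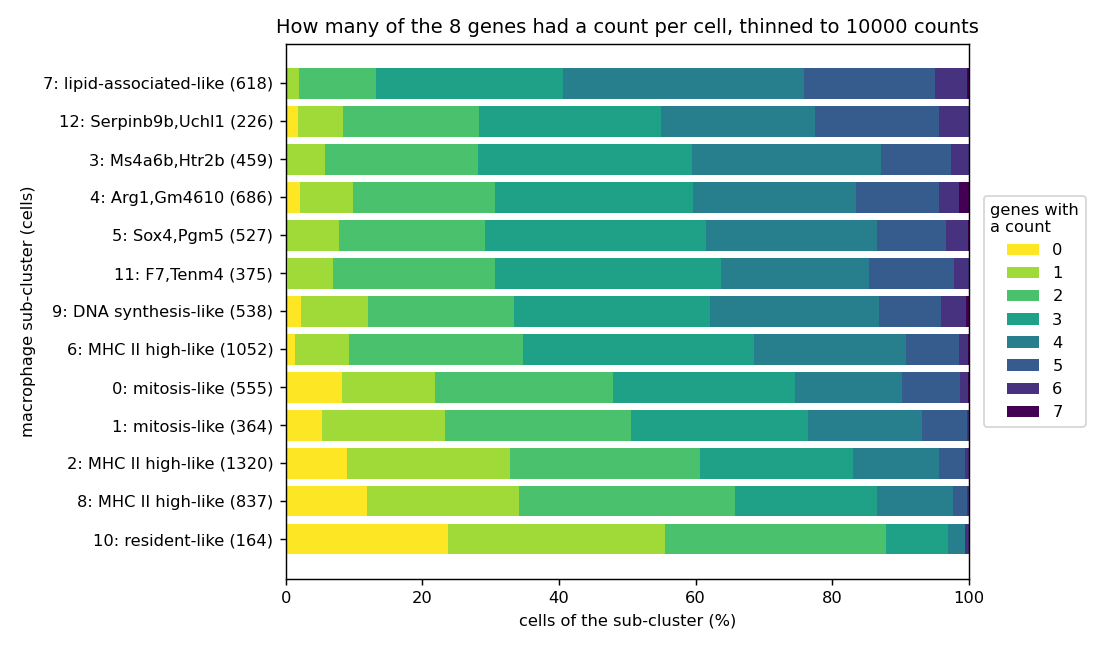
Share of cells (percent) of each macrophage sub-cluster by how many of the 8 genes had a count, with cells thinned to 10000 counts and cell numbers in brackets. The lipid-associated-like sub-cluster is at the top, with a mean of 3.73 genes per cell, and the resident-like one at the bottom, with 1.37.

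Between macrophage-like and fibroblast-like cells part of the genes passed the rule of size. Dcstamp (27.5 against 0.918 CPM), Acp5 (180 against 41.5 CPM), Atp6v0d2 (1058 against 16.5 CPM) and Tnfrsf11a were higher in macrophage-like cells, so 4 of 8 were higher and 0 lower where the rule called 6.09% of all genes higher and 9.04% lower, or 13.6 and 19% of genes at 5 CPM or more. The median log2 ratio was 1.61 over the 8 genes and -0.04 over all genes at 5 CPM or more. Ctsk had nearly the same level in both classes, at 623, 1063, 620 and 801 CPM in macrophage-like cells of hashtags A0309 to A0312, against 670, 731, 695 and 700 CPM in fibroblast-like cells. The log2 ratio was 0.16 in the pool and -0.16 to 0.54 over hashtags. The spread over cells was not alike, since 32.9% of macrophage-like and 83.0% of fibroblast-like cells had a Ctsk count after thinning. Without thinning, 30.0% of macrophage-like cells had 10 or more Ctsk counts. At nearly the same level, Ctsk was thus found in a smaller share of macrophages than of fibroblasts. Mitf, at 83.8 against 46.7 CPM, Nfatc1, at 34.4 against 19.96 CPM, and Ocstamp, at 5.45 against 1.93 CPM, were not called. They were still higher in macrophage-like cells in every hashtag, with log2 ratios of 0.83, 0.75 and 1.14 in the pool.

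**Figure D5:**
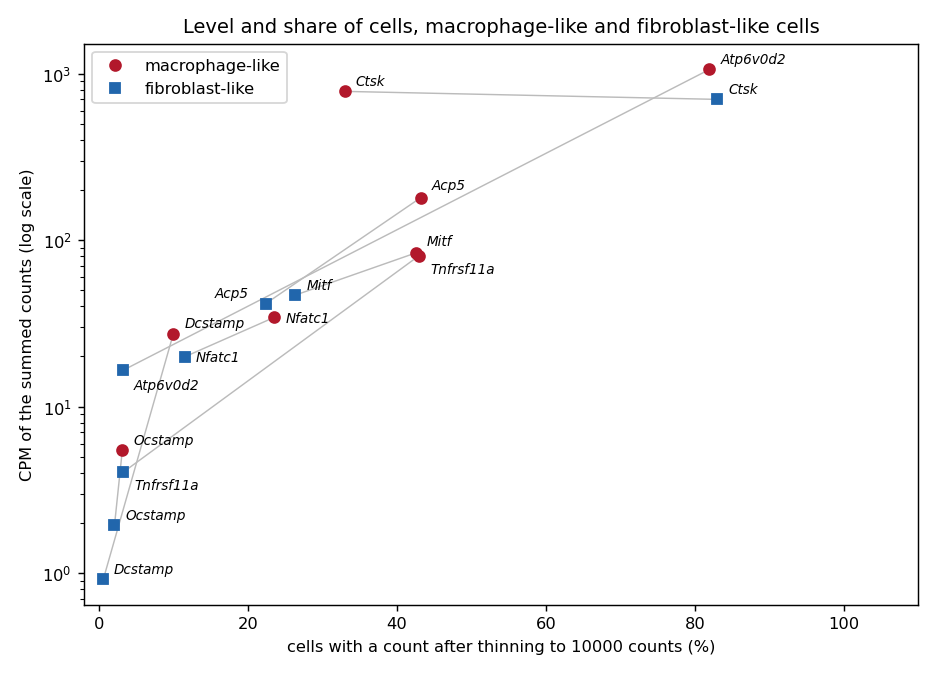
CPM (log scale) against the percent of cells with a count after thinning to 10000 counts, in macrophage-like and fibroblast-like cells, with a line joining the 2 classes of a gene. For Ctsk the line is nearly flat, at 782 and 700 CPM, while the share of cells is 32.9% and 83.0%; low counts of Ctsk and Atp6v0d2 were set to 0 before deposit.

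In fibroblast-like cells Ctsk, Nfatc1, Mitf, Ocstamp and Acp5 stood at larger shares of their macrophage level than the macrophage markers did. The macrophage markers Adgre1, Cd68, C1qa, C1qb, Csf1r and Mrc1 stood at 1.38 to 3.28% of their macrophage level in fibroblast-like cells, where Ctsk stood at 89.5%, Nfatc1 at 58.1%, Mitf at 55.8%, Ocstamp at 35.5% and Acp5 at 23.1%. Dcstamp at 3.34% and Atp6v0d2 at 1.56% were close to the range of those markers, and Tnfrsf11a stood at 5.003%. The Ocstamp share rests on low levels in both classes, 1.93 against 5.45 CPM. In fibroblast-like cells it had 259 counts in 211 of 3517 cells, and lipid-associated-like macrophages were lower, at 1.63 CPM. Among the 14 fibroblast sub-clusters, sub-cluster 0, with 264 cells led by Mlana, Igfbp3 and Chchd10, was the highest for Ctsk, Acp5 and Mitf. Ctsk stood there at 1738, 1575, 1746 and 1477 CPM, against 190, 262, 279 and 222 CPM in fibroblast sub-cluster 7, the lowest, with 438 cells led by Mrgprg and Adamts16. Acp5 stood at 106, 84.9, 103 and 87.1 CPM in sub-cluster 0, against 5.30, 9.87, 4.43 and 4.82 CPM in sub-cluster 7. Mitf stood at 113, 95.6, 110 and 125 CPM, against 21.8, 17.3, 24.8 and 26.0 CPM. Macrophage markers stood at 0.773 to 3.06% of their macrophage level in sub-cluster 0. Mlana is known as a melanocyte gene and a target of MITF there.

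In single fibroblasts, Acp5 and Mitf were together at a ratio of 1.30 to the expected number over 3401 thinned cells and 1.20 within sub-clusters. Ctsk with Acp5 had a ratio of 1.12 and Ctsk with Mitf one of 1.06. Nfatc1 had ratios of 0.84 with Mitf and 0.87 with Acp5. It was highest in fibroblast sub-cluster 13, led by Tnc, Sema7a and Inhba, at 27.0, 35.1, 39.5 and 95.6 CPM, where A0312 stood apart, and it was 10.97 CPM in sub-cluster 0. The cycling fibroblast sub-cluster 9, with 60 cells, had the highest Atp6v0d2, 273 CPM, and macrophage markers there stood at 22.5 to 30.1% of their macrophage level.

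Against monocyte-like cells the number of genes called depended on hashtag A0311. The rule called 1 of 8 genes, Dcstamp, higher in macrophage-like cells, at 27.5 against 4.01 CPM, where it called 0.68% of all genes higher and 1.61% lower, or 1.14 and 4.26% of genes at 5 CPM or more. Ctsk, at 782 against 187 CPM, was not called because monocyte-like cells of A0311 had 600 CPM, against 61.7, 77.0 and 21.9 CPM in A0309, A0310 and A0312. These levels rest on few cells, since only 12 of 192 monocyte-like cells had a Ctsk count, with 841 counts in all. Without A0311, 4 genes were called higher, with log2 ratios of 4.15 for Ctsk, 1.28 for Acp5 and 1.42 for Atp6v0d2 besides Dcstamp. With a stricter hashtag rule 6 were higher and 1 was lower, but that setting left 68 monocyte-like cells, against 192 here. These are too few for each of the 4 hashtags to hold the 20 cells needed, so fewer hashtags had to agree. The rise from 1 to 6 genes called higher is therefore not a like-for-like change. Atp6v0d2 stood at 1058 against 431 CPM, Acp5 at 180 against 87.5 CPM, Mitf at 83.8 against 52.6 CPM and Nfatc1 at 34.4 against 60.8 CPM. The monocyte-like cells carried the macrophage markers at 60.2 to 110% of their macrophage level and had a median of 18119 counts, and the part of these in the levels was not tested.

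Nfatc1 was highest in T cell-like cells, at 142, 153, 163 and 190 CPM in hashtags A0309 to A0312 and 169 CPM in the pool, against 31.4, 37.7, 30.6 and 36.6 CPM in macrophage-like cells. After thinning, 50.7% of T cell-like and 23.5% of macrophage-like cells had a count. T cell-like cells also had 199 CPM of Acp5, with 331 CPM in A0312 against 83.9 to 107 CPM in the other hashtags. Both went beyond the macrophage markers, which stood at 28.9 to 38.0% of their macrophage level in T cell-like cells, while Ctsk at 27.2% and Atp6v0d2 at 25.6% lay close to those markers. A cluster of 14 endothelial-like cells with the lymphatic genes Prox1, Flt4 and Ccl21a had 469 CPM of Nfatc1, from 114 counts in 10 cells. In the main endothelial-like cluster of 896 cells, Nfatc1 stood at 119% of its macrophage level, with macrophage markers at 7.90 to 13.2%, Ctsk at 7.23% and Atp6v0d2 at 7.26%.

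Dendritic cell-like cells had 14.4 CPM of Ocstamp, against 5.45 CPM in macrophage-like cells, with 10.4, 12.3, 13.1 and 21.8 CPM over hashtags. They had little Ctsk, 18.4 CPM or 2.36% of the macrophage level, where the macrophage markers stood at 17.5 to 24.8%. Their Dcstamp was lower than in macrophage-like cells, at 12.8 against 27.5 CPM. An unnamed cluster of 608 cells was led by Cd209a, Retnla and Ear2. In the pool it had Dcstamp at 38.0 CPM and Ocstamp at 12.6 CPM, or 138 and 231% of the macrophage level. Its Ctsk was at 6.72% of that level. Over hashtags A0309 to A0312 its Dcstamp was 49.6, 29.2, 24.6 and 30.2 CPM, against 23.8, 36.0, 26.2 and 24.6 CPM in macrophage-like cells. Its Ocstamp was 16.9, 4.93, 6.83 and 14.4 CPM, against 7.67, 6.64, 4.39 and 4.30 CPM. So Dcstamp was below the macrophage level in A0310 and A0311, and Ocstamp in A0310. Of the 608 cells, 272 came from A0309. In the pool of both sets of cells a higher level of Ocstamp than in macrophage-like cells stood beside a low level of Ctsk. A high Ocstamp level was not particular to them, since T cell-like cells had 13.4 CPM, from 88 counts in 19 of 406 cells. Over hashtags A0309 to A0312 these had 9.78, 1.78, 4.56 and 23.0 CPM.

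The genes around the 8 were taken from 11 lists of 90 genes, of which 89 were in the table. Between lipid-associated-like and resident-like cells, 11 of 89 (12.4%) were higher and 8 (8.99%) lower, with a median log2 ratio of 0.15. The rule called 3.07% of all genes at 5 CPM or more higher and 6.45% lower, so the number lower was near that share. Of the catalytic V1 part of the V-ATPase, 4 of 8 genes were higher, with a list median of 1.24, and the largest was Atp6v1c1, at 300 against 88.6 CPM. Of the other V0 and accessory subunits 0 of 8 were called, with a median of 0.64. Among paralogues, the lysosomal proteases Ctsl (5976 against 1125 CPM), Ctsd (10205 against 2739 CPM) and Ctss (4164 against 1580 CPM) were higher. Low counts of Ctsl, Ctsd and Ctss had also been set to 0 before deposit. Cd40, a receptor of the same family as RANK, was lower, at 9.91 against 56.1 CPM.

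Among 12 fusion partners, Adam8, a membrane protease, was higher at 752 against 88.8 CPM, and Cd9, a tetraspanin, at 969 against 216 CPM. Cd81, another tetraspanin, was lower at 23.1 against 278 CPM, and Il4ra, the receptor of interleukin 4, at 7.88 against 107.8 CPM. Trem2, a receptor that signals through ITAM adaptors, was higher at 2095 against 704 CPM and was 1 of 10 in its list. Cd9 and Trem2 are also on the list of markers for the lipid-associated-like state, so their direction is no finding. They were not among the 6 markers that named sub-cluster 7, which were Gpnmb, Spp1, Mmp12, Cd63, Fabp5 and Lgals3. Car2 had 4.58 CPM against 0 counts in resident-like cells, where 3 counts would be 0.650 CPM. Of 12 transcription activators of osteoclasts, 0 were higher and 3 lower, with Jun at 405 against 2065 CPM, Fos at 1418 against 4683 CPM and Jdp2 at 6.91 against 22.3 CPM. Csf1r, the receptor of CSF1, was lower at 479 against 1552 CPM.

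Against all other macrophages, 1 of 89 was higher, Ctsl, and 2 (2.25%) were lower, Cd81 and Il4ra, where the rule called 0.522 and 3.91% of genes at 5 CPM or more. Between macrophage-like and fibroblast-like cells, 45 of 89 (50.6%) were higher, among them 9 of 10 ITAM genes, 7 of 8 V1 genes and 5 of 8 V0 and accessory genes, and 11 (12.4%) were lower, among them Csf1 and Tnfrsf11b, where the rule called 13.6 and 19% of genes at 5 CPM or more. Between macrophage-like and monocyte-like cells, 0 were higher and 3 (3.37%) were lower, Plcg2, Fosl2 and Cd40, below the 4.26% of genes at 5 CPM or more called lower.

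The genes most like each of the 8 were found by Pearson correlation of log2(CPM + 1) over 21 classes and macrophage sub-clusters among 15552 genes. For Atp6v0d2 they were Galnt7 and Cd68, both at 0.98, and for Tnfrsf11a Tbxas1 at 0.98. For Mitf it was Lpl at 0.95, for Dcstamp Psmb5 at 0.95, for Nfatc1 Rnf40 at 0.94 and for Ctsk Slc6a8 at 0.93. Acp5 and Ocstamp had no gene above 0.81, with Galnt6 at 0.81 and Gtpbp4 at 0.80. The points share a library and differ in depth, and over macrophage sub-clusters alone 1 of the 24 genes chosen in this way was chosen again.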

How the data were processed

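Per the labels, 1 pooled library of transcripts and 1 of hashtags come from the same cells, and the results rest on the transcript library. The authors deposited whole-number counts per gene and cell, not normalized, with their hashtag or doublet call in each cell name. Nothing in the labels or headers says if these are counts of reads or of molecules. The submitters' processing notes name the genome build GRCm38, R 4.1.2, R 3.6.3, Bowtie2 2.4.2 and cutadapt 3.4, with no role stated. For 68 genes the smallest value above 0 was 5 to 68, so low values of these had been replaced by 0.

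The 8 genes, the companion lists and the markers were chosen with earlier results of these data known. The authors' 367 doublets were left out and no doublet caller was run. Cells needed 200 genes and at most 25% mitochondrial counts. Clusters came from log-transformed counts at 10000 a cell, with 2000 variable genes (the 8 genes and the companions left out), 30 principal components, 20 neighbours and Leiden resolution 1 in scanpy 1.11.5. A class or state was named where 3 or more markers, each found in 25% of cells or more, passed a level rule. The level had to exceed the 25% quantile of that marker over the clusters by a log2 difference of 1, so other clusters could be as high. Sub-clusters with leading genes of another class (57 cells among macrophages and 457 among fibroblasts) were left out, and clusters of 608 and 242 cells stayed unnamed. Companions named are the called genes with the largest log2 ratios, up to 3 per list and comparison. With 1 pooled library there is no replicate and no test. A gene was called when its log2 ratio of CPM plus 1 reached 1 in size, with no change of sign, both for all cells and for each hashtag that held 20 or more cells of each class compared. Intervals are 95% exact Poisson. Scripts were tested on simulated data.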

Additional observations from a re-analysis of the deposited data

How the results depend on the processing

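Of 416 log2 ratios under the alternatives, 368 kept both their sign and their side of the rule and 31 had the other sign, among them Ocstamp in lipid-associated-like over resident-like cells in 7 settings and over the other macrophages in 5, and Dcstamp over the other macrophages in 6. Under the stricter hashtag rule, which left 85 resident-like cells, 5 members were higher than in these, with Ocstamp at 1.53. Of 280 ratios of gene pairs in cells 32 moved by more than the width of their range over hashtags, and of 632 levels 88 moved by more than the SD over hashtags. At Leiden resolution 2.0, 2 members rather than 4 were higher in lipid-associated-like than in resident-like cells, with Atp6v0d2 at -0.15, since another cluster was then named resident-like. The number lower than in other macrophages was 0 to 1 when each hashtag was left out in turn. Against monocyte-like cells, 6 members were higher and 1 lower under a stricter hashtag rule. Only 68 monocyte-like cells were left there, too few for each of the 4 hashtags to hold 20, so fewer hashtags had to agree. Against monocyte-like cells 3 members were higher without the deepest 5% of cells and 3 with the mean over cells. With cells thinned to 20000 counts, an alternative chosen after seeing the data, 3 were higher. Only 79 monocyte-like cells were left there, again too few for each of the 4 hashtags to hold 20. Fewer hashtags thus had to agree. When each hashtag was left out, 1 to 4 members were higher than in monocyte-like cells. That comparison could not be made with doublets kept, with a stricter cell filter or at resolutions 0.5 and 2.0, where no cluster was monocyte-like. Of the 24 most alike genes, 8 were chosen again by Spearman correlation and 1 over macrophage sub-clusters alone. The number of lipid-associated-like cells ranged from 602 to 2164 and that of resident-like cells from 85 to 192. With doublets kept Dcstamp was called higher in lipid-associated-like cells than in the other macrophages, at 1.54, and at resolution 2.0 at 1.15. The cause of these changes other than the renamed cluster was not tested. No paired analysis was possible because the hashtags carry no genotype and the 2 libraries are of 1 pool. Genes with few counts, Ocstamp and Dcstamp in resident-like cells above all, are limited by depth.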
